A study of Capra hircus with 9 samples.

Results

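The transcripts described here are those whose annotation names a CD3 antigen, a granzyme, integrin alpha 4 or the kinase MAP4K1 in mammary gland RNA of Xinong Saanen dairy goats. They were found by annotation text in a table that held 9131 transcripts with stage means, and 23 transcripts of 8 genes (CD3D, CD3E, CD3G, GZMA, GZMB, GZMH, ITGA4 and MAP4K1) had values there. The wording listed 34 transcripts in 22 assembled components for 11 genes among 51299 annotated transcripts, and the other 11 had no stage mean: the single transcripts of CD247, GZMK and GZMM, both of GZMA that are not counted above, and 3 each of GZMH and ITGA4. Their levels are not known from these data. The members were chosen by annotation, but from a group of genes selected on these stage means, above all those of dry-off and lactation, so the differences between stages are given below as descriptions and support nothing by themselves.

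Poly(A) RNA was sequenced from 3 samples of each of 3 stages: lactation at 100 days postpartum, dry-off at 310 days postpartum, and a non-lactation stage of goats that were neither lactating nor pregnant. All 3 groups are of the same breed, and the labels state no treatment or allele and do not say whether the samples of a stage came from different animals. Each value below is the authors' mean of a stage in RPKM, a read count per unit of transcript length and sequencing depth, with no spread or depth per sample, so errors and single-sample values cannot be given. In bulk tissue, more cells of a type and more RNA per cell cannot be told apart.

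CD3 antigens are the invariant chains of the T cell receptor complex, which carry the signal of an engaged receptor into the cell, and they are the defining transcripts of T cells. Granzymes are serine proteases that cytotoxic T cells and natural killer cells store in granules and release with perforin into a target cell. Integrin alpha 4 pairs with integrin beta 1 or beta 7 and lets leukocytes adhere to VCAM1 and, in the gut, to MAdCAM-1, and MAP4K1 is a kinase of blood cells that, in mouse and human, dampens signalling below the T cell receptor. Neither ITGA4 nor MAP4K1 is restricted to T cells. In ruminants the mammary gland holds T cells in its epithelium and connective tissue, and their number is known to shift between lactation and involution.

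All 8 genes were lowest in lactation, intermediate in non-lactation and highest in dry-off at their leading transcript, which is the one with the highest mean over the 3 stages. That order held for 22 of the 23 transcripts (95.7%), and it also held for 91.1% of all transcripts in the table, so it does not set these genes apart. With nothing added to the means, a ratio to lactation exists for 20 of the 23 members and for 8932 transcripts of the table, those above 0 in both stages. The median of the 20 was 3.89 on the log2 scale for dry-off over lactation, against 2.09 for the table. Of these 20, 9 are granzyme H transcripts of 1 component and weigh on that median. Over the 8 leading transcripts, a different basis from the table's, the median was 4.68. For non-lactation over lactation the median log2 ratio of the 20 was 2.48 against 1.39. For non-lactation over dry-off it was -1.45 over 22 members against -0.70 over 9111 transcripts. In lactation 19 of the 23 (82.6%) had a mean below 1 RPKM, where a ratio rests on few reads, compared with 42.0% of all transcripts.

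**Figure D1:**
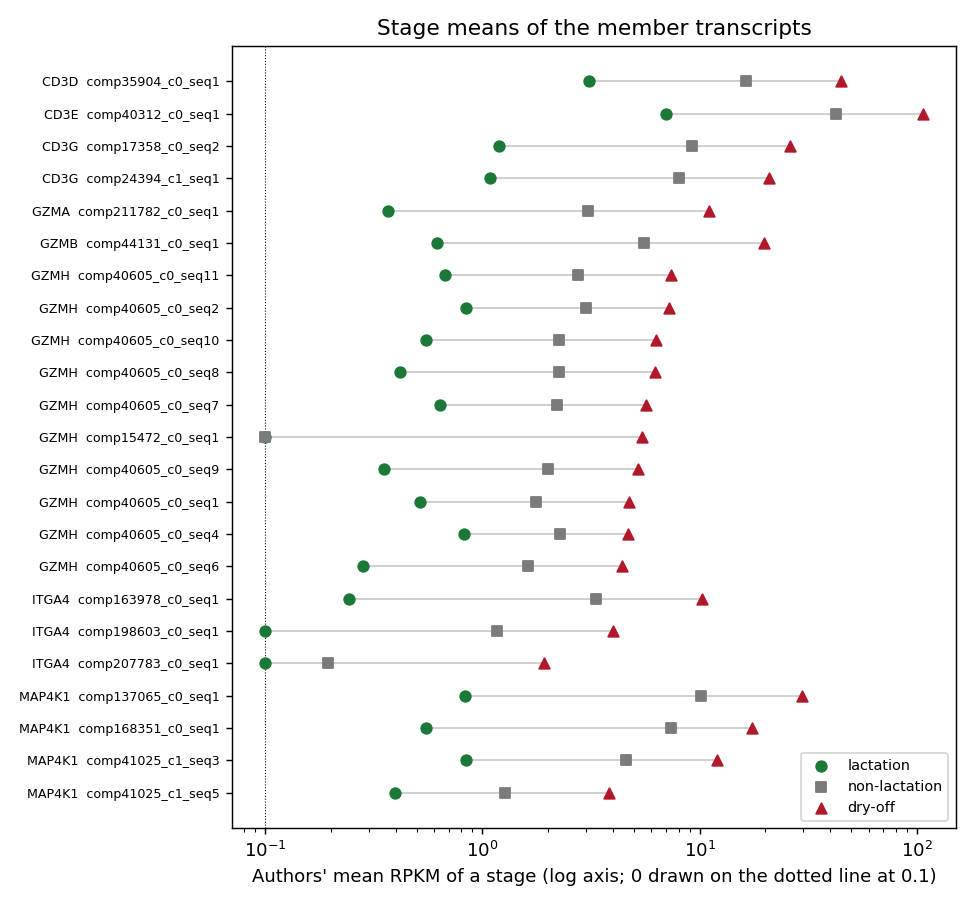
Authors' mean RPKM of each of the 23 transcripts in lactation (circles), non-lactation (squares) and dry-off (triangles) on a log axis, with a value of 0 drawn on the dotted line. The triangle lies farthest to the right in every line, and 3 transcripts are at 0 in lactation.

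By leading transcript, CD3E and CD3D had the highest means of the 8 genes in every stage. Genes with several transcripts, such as MAP4K1 and GZMH, were not summed, so this is not a ranking of whole genes. CD3E, a signalling chain that all T cells carry, had a mean of 6.97 RPKM in lactation, 106 at dry-off and 42.5 in non-lactation. CD3D, which pairs with CD3E, had 3.11 RPKM in lactation, 44.7 at dry-off and 16.4 in non-lactation. These are ratios of dry-off to lactation of 15.3-fold for CD3E and 14.4-fold for CD3D, and of non-lactation to lactation of 6.10-fold and 5.27-fold.

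CD3G, the gamma chain of the complex, was assembled as transcripts of 2 components with much the same pattern. The first had 1.20 RPKM in lactation, 26.1 at dry-off and 9.24 in non-lactation. The second had 1.08, 20.8 and 8.04 RPKM in the same order of stages. Their dry-off to lactation ratios of 21.8-fold and 19.3-fold were above those of CD3D and CD3E, and no error is available to say whether that gap exceeds the spread between samples. In the RefSeq goat gene table (assembly ARS1.2) CD3G, CD3D and CD3E are immediate neighbours on one chromosome.

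Relative to CD3E in the same stage, CD3D was nearly level, at 44.6% in lactation, 42.1% at dry-off and 38.5% in non-lactation. CD3G was 17.2%, 24.6% and 21.7% of CD3E in those stages.

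Among single granzyme transcripts, the one described as granzyme B had the highest mean in dry-off. Granzyme H was split over 10 transcripts that were not summed, so this does not rank the granzyme genes. Granzyme B is the protease that cleaves caspases in a target cell, and its transcript had 0.618 RPKM in lactation, 19.8 at dry-off and 5.52 in non-lactation, 31.9-fold and 8.93-fold above lactation. Granzyme A, a tryptase-type granule protease, had 0.366 RPKM in lactation, 11.1 at dry-off and 3.06 in non-lactation, ratios of 30.2-fold and 8.34-fold to lactation. The ratio of dry-off to non-lactation was 3.58-fold for granzyme B and 3.62-fold for granzyme A, compared with 2.50-fold for CD3E.

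Granzyme H, in human a chymotrypsin-type protease encoded next to granzyme B, was the description of 10 transcripts. Of these, 9 belong to 1 component and so share sequence and reads, and their means ran from 0.282 to 0.839 RPKM in lactation, 4.39 to 7.41 in dry-off and 1.61 to 3.0 in non-lactation. Their ratios of dry-off to lactation ran from 5.67-fold to 15.6-fold, with a median of 11-fold, and were below that of granzyme B for all 9. The tenth, in a component of its own, was listed at 0 in lactation and in non-lactation and at 5.42 RPKM in dry-off, and is the single transcript outside the shared order. No gene was matched under the symbols GZMB or GZMH in the RefSeq goat table, so both names rest on the authors' descriptions, and reads of related granzyme genes may have been shared between them.

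Granzyme B was 8.87% of CD3E in lactation, 18.6% at dry-off and 13% in non-lactation. Granzyme A was 5.26%, 10.4% and 7.18% of CD3E, whereas the leading granzyme H transcript was 12%, 6.78% and 7.04%. Of the 9 granzyme H transcripts above 0 in lactation, 8 were a smaller percent of CD3E at dry-off than in lactation, by very little for some, and 1 was nearly level, at 4.05% and 4.13%. The tenth went from 0 to 5.10% of CD3E, so the direction seen at the leading transcript does not hold for all transcripts under that name.

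**Figure D2:**
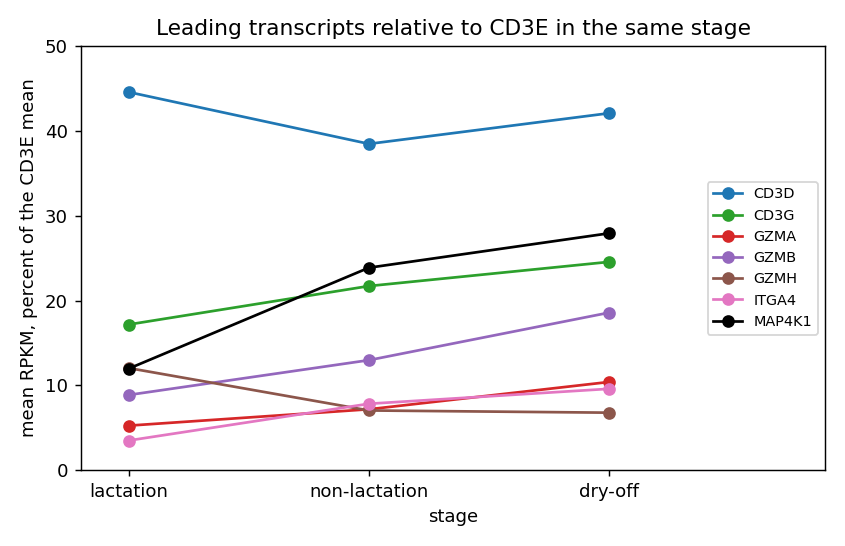
Mean RPKM of the leading transcript of each gene as a percent of the CD3E mean in the same stage, with points joined by gene and no error available. CD3D stays between 38.5% and 44.6%, GZMB and MAP4K1 are higher in dry-off than in lactation, and the leading GZMH transcript is lower.

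ITGA4 had the largest ratio of the leading transcripts and the lowest lactation mean. Its leading transcript had 0.244 RPKM in lactation, 10.2 at dry-off and 3.33 in non-lactation, ratios to lactation of 41.8-fold and 13.7-fold. The other transcripts, each in its own component, were listed at 0 in lactation. One had 3.98 RPKM in dry-off and 1.17 in non-lactation, and the other 1.93 and 0.195.

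MAP4K1 was present in 4 transcripts of 3 components. The leading one had 0.835 RPKM in lactation, 29.7 at dry-off and 10.2 in non-lactation, 35.6-fold and 12.2-fold above lactation. The next had 0.548 RPKM in lactation, 17.4 at dry-off and 7.40 in non-lactation, a ratio of 31.8-fold for dry-off. The pair from the third component had ratios of 14.4-fold and 9.67-fold, so transcripts under the same name differed widely in this ratio.

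MAP4K1 and ITGA4 were set beside the other genes of their families, a comparison chosen after the values were seen. MAP4K2, MAP4K3, MAP4K4 and MAP4K5, kinases of the same family that are not restricted to blood cells, had dry-off to lactation ratios at their leading transcripts of 4.79-fold, 4.40-fold, 3.83-fold and 15.2-fold. All 4 were below the 35.6-fold of the leading MAP4K1 transcript, but MAP4K5 was above the lower pair of MAP4K1 transcripts, at 14.4-fold and 9.67-fold. Among integrin alpha chains with a level above 0 in lactation, ITGA4 at 41.8-fold was followed by ITGAE, which marks T cells within epithelium, at 34.4-fold and by ITGAX, of myeloid cells, at 12-fold. ITGA1, ITGA3, ITGA5, ITGA6, ITGA7, ITGA9 and ITGAV lay between 2.57-fold and 9.44-fold at their leading transcripts. Other transcripts of ITGAE reached 55.9-fold and of ITGA9 50.1-fold, above ITGA4.

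**Figure D3:**
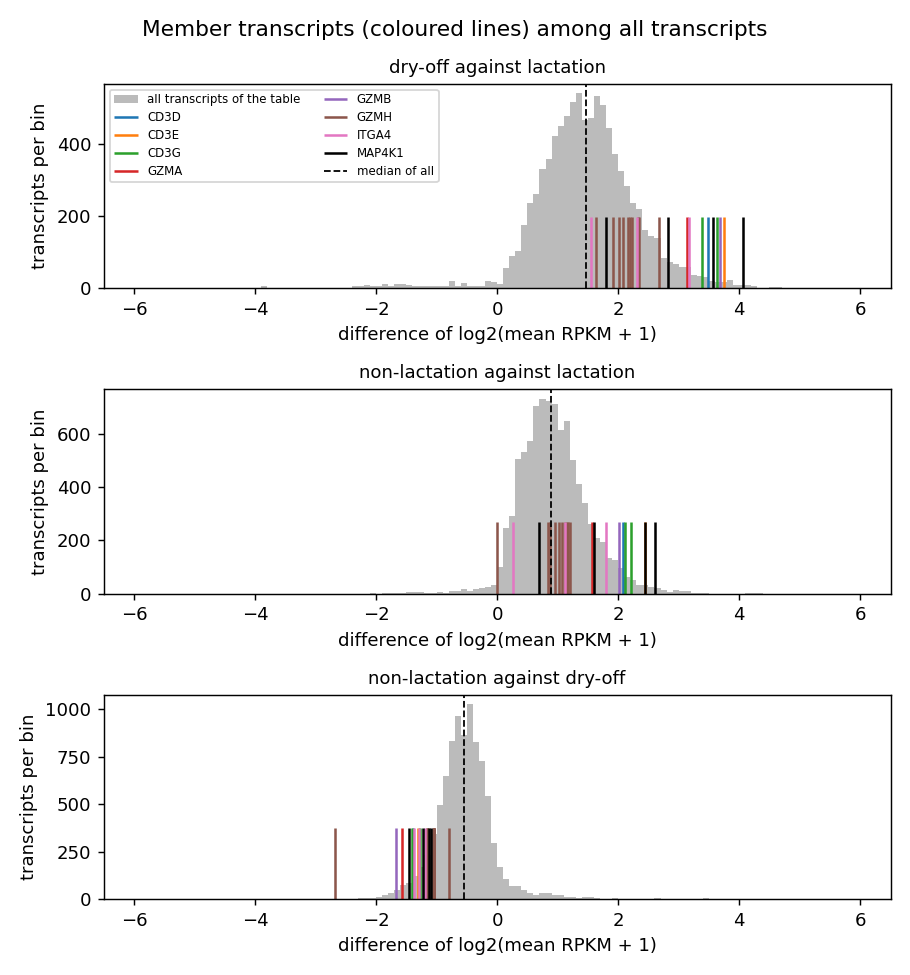
Differences of log2(mean RPKM + 1) of all 9131 transcripts (grey) in the 3 comparisons, with the 23 members as coloured lines and the median of all as a dashed line. In dry-off against lactation every member lies to the right of the median, and in non-lactation against dry-off every member lies to its left.

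The authors' own tests were read with these ratios. For dry-off against lactation, the contrast from which the genes were chosen, the authors' deposited table put 12 of the 23 members past an FDR of 0.05, all higher in dry-off, where 66.6% of all transcripts passed and 65.9% passed and were higher. Nothing is read from that share. Of the 12 calls, 5 are granzyme H transcripts of 1 component, which share reads. With 1 transcript kept per component, 8 of 14 passed. The 12 came from CD3G, GZMB, GZMH, ITGA4 and MAP4K1, while CD3D (FDR 0.0728), CD3E (0.0823) and GZMA (0.108) did not pass in the authors' deposited table despite ratios above 14-fold. At an unadjusted p under 0.05 in the authors' deposited table, 20 of the 23 passed, against 88.2% of all transcripts.

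In non-lactation against lactation no member passed an FDR of 0.05 in the authors' deposited table, where 0.011% of all transcripts did. The FDRs of the leading transcripts in that comparison of the authors' deposited table were 0.453 for CD3D, 0.450 for CD3E, 0.438 for CD3G, 0.510 for GZMA, 0.521 for GZMB, 0.462 for GZMH, 0.393 for ITGA4 and 0.306 for MAP4K1. At an unadjusted p under 0.05 in the authors' deposited table, 1 of the 23 members passed, an ITGA4 transcript listed at 0 in lactation with p = 0.0353, against 41.7% of all transcripts. Beside the table, the median ratio of the members was higher and their share of calls lower. Of the 23, 9 are granzyme H transcripts of 1 component, which share reads and weigh on both, so nothing is read from this contrast.

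In non-lactation against dry-off no member and 0% of all transcripts passed an FDR of 0.05 in the authors' deposited table. At an unadjusted p under 0.05 in the authors' deposited table, 2 of the 23 members passed, the leading MAP4K1 transcript and an ITGA4 transcript, each with p = 0.0306, against 40.5% of all transcripts. The 3 comparisons share their samples pairwise and are not independent of each other.

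The wider setting came from 9 lists of genes that work in or with T cells and natural killer cells. The lists also hold genes that other cells express, such as VCAM1, ICAM1, CXCL12, ITGAX, ITGB1 and NFKB1, so their counts do not describe lymphocytes alone. Of the listed genes, 61 that are not members had stage means, and their differences are measured at the leading transcript on the log2(mean + 1) scale, which understates the change of low genes. In dry-off against lactation 39 of the 61 rose past an FDR of 0.05 in the authors' deposited table and none fell (63.9%, against 65.9% higher in the whole table), with a median difference of 2.63. The median over all transcripts on that scale was 1.47, on a different basis, because it counts every transcript and not only the leading ones. Among the members the median on that scale was 2.35 over all their transcripts and 3.55 over the leading ones. A median over leading transcripts only was not computed for the whole table, so nothing is read from the gap between 2.63 and 1.47. In non-lactation against lactation the median of the 61 was 1.58 and in non-lactation against dry-off -1.11. Over all transcripts, with the same difference of basis, the medians were 0.90 and -0.55. None of the 61 passed in either comparison of the authors' deposited table. At an unadjusted p under 0.05 in the authors' deposited table, 8 (13.1%) passed in the former, against 41.7% of all transcripts, and 24 (39.3%) in the latter, against 40.5%.

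Defining genes of T cell subsets and of killing could not be read. CD4, CD8A, CD8B, PRF1 (perforin), ZAP70, IL2RB and TBX21 are among 28 annotated list genes with no stage mean, so which subset carried the CD3 transcripts is not shown by these data.

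Here and below, a gene that rose was higher past an FDR of 0.05 in dry-off against lactation, as were 65.9% of all transcripts. Nothing is read from the counts per list. Of the coreceptors and costimulators, 5 of 7 rose in dry-off against lactation in the authors' deposited table. CD2, an adhesion receptor of T and natural killer cells, went from 2.28 to 42.4 RPKM and was at 11.3 in non-lactation. CD48, a ligand of the same receptor family, went from 5.11 to 109 RPKM and was at 31.6 in non-lactation. CD5 and CD27 had 2.32 and 0.892 RPKM in lactation and 16.4 and 18.9 in dry-off and did not pass. CD58 had the smallest difference of the 7, rising from 6.62 to 15.9 RPKM, and was at 11.6 in non-lactation.

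Of the genes of T cell receptor signalling, 6 of 12 rose in the authors' deposited table. The phosphatase PTPN6, which dampens receptor signals, went from 9.14 to 42.7 RPKM, and NFKB1 from 4.26 to 27.2. LCK, the kinase that phosphorylates the CD3 chains, had 2.43 RPKM in lactation, 29.2 at dry-off and 13.3 in non-lactation and did not pass, with an FDR of 0.0532 in the authors' deposited table. PTPRC (CD45), the phosphatase of all leukocytes, had 2.57, 48.7 and 21.3 RPKM in that order of stages and did not pass either, nor did the GTPase RAC2 with 7.84, 134 and 43.7.

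Of the granule genes beside the granzymes, 3 of 5 rose in the authors' deposited table. Cathepsin W (CTSW), a protease of cytotoxic lymphocytes, went from 6.48 to 84.3 RPKM, and cathepsin C (CTSC), which activates granzymes, from 6.93 to 43.8. RAB27A, which docks granules at the membrane, went from 1.42 to 13 RPKM. The ligand FASLG was listed at 0 in lactation, at 4.26 RPKM in dry-off and at 1.04 in non-lactation and did not pass.

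Of the natural killer receptors, 4 of 6 rose in the authors' deposited table. KLRK1 (NKG2D), which cytotoxic T cells share, went from 1.14 to 22.7 RPKM and its adaptor HCST from 1.45 to 21.2. CD96 went from 0.639 to 16.0 RPKM. TYROBP had 9.24 RPKM in lactation and 57.4 at dry-off, and FCGR3A had 1.53 and 22.1. Neither passed, with FDRs of 0.0721 and 0.0722 in the authors' deposited table.

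Of the integrins and their ligands, 8 of 11 rose in the authors' deposited table. Both beta partners of ITGA4 were among them, ITGB1 going from 18.3 to 85.6 RPKM and ITGB7 from 0.521 to 5.65. VCAM1, the endothelial ligand of ITGA4, had 0.343 RPKM in lactation, 12.3 at dry-off and 3.35 in non-lactation and did not pass, with an FDR of 0.0752 in the authors' deposited table. ICAM1, the ligand of another leukocyte integrin, rose from 1.88 to 37.0 RPKM. ICAM2 rose from 5.53 to 32.4 RPKM and ITGB2 from 3.31 to 35.5. SELPLG had 4.06 RPKM in lactation and 24.6 at dry-off and did not pass, with an FDR of 0.0523 in the authors' deposited table.

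Chemokines and their receptors rose in 6 of 9 cases in the authors' deposited table, among them CXCL9, which draws activated T cells, from 16.3 to 404 RPKM, and CXCL12 from 14.6 to 254. The receptors CXCR4 (FDR 0.0595), CXCR3 (0.0869) and CX3CR1 (0.0914) did not pass in the authors' deposited table. S1PR1 rose from 4.34 to 26.9 RPKM. Of the cytokine genes 3 of 7 rose in the authors' deposited table, including the receptor IL7R from 0.662 to 14 RPKM. IL2RG, the common gamma chain, had 6.06 RPKM in lactation and 123 in dry-off with an FDR of 0.0561 in the authors' deposited table. All 4 transcription factors measured (RUNX1, TCF7, LEF1 and STAT4) rose in the authors' deposited table.

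**Figure D4:**
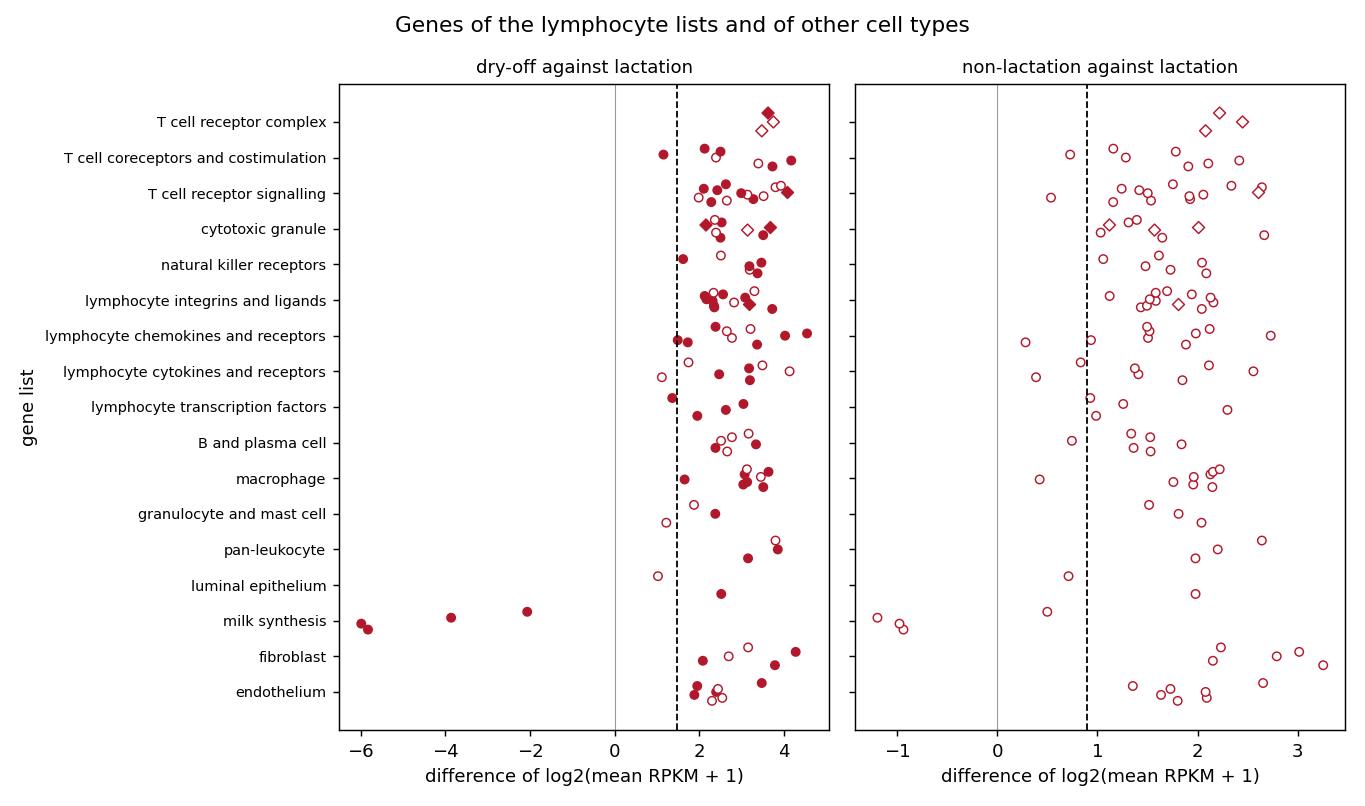
Differences of log2(mean RPKM + 1) for the measured genes of each list, dry-off against lactation on the left and non-lactation against lactation on the right, with members as diamonds, filled symbols for an FDR under 0.05 in the authors' deposited table and the median of all transcripts dashed. Filled symbols are present on the left and absent on the right, and the milk synthesis genes are the ones below 0 on the left.

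The summed markers of other cell types were also higher in dry-off than in lactation. The summed level of 6 B and plasma cell genes was 4.30 RPKM in lactation, 67.6 at dry-off and 21.6 in non-lactation, a dry-off to lactation ratio of 15.7-fold, the same as the 15.7-fold of the 3 CD3 genes. The 8 macrophage genes summed to 70.7, 681 and 273 RPKM, a ratio of 9.65-fold. The 5 fibroblast genes summed to 56.9, 754 and 528 RPKM and the 7 endothelial genes to 65.1, 428 and 292, ratios of 13.3-fold and 6.57-fold. A sum leans on its most abundant genes: DCN alone had 43.5, 614 and 424 RPKM, and C1QA of the macrophage list 24.4, 288 and 111. Single genes of a list differed widely, with PDGFRA at 0.892 RPKM in lactation and 35.7 at dry-off and LUM at 8.17 and 58.4. The 3 granulocyte and mast cell genes summed to 3.51, 21.1 and 18.2 RPKM. The 3 pan-leukocyte genes PTPRC, CD53 and CD37, which T cells share, summed to 9.19, 154 and 56.9 RPKM, a ratio of 16.8-fold.

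Not every marker followed the order of the lymphocyte genes: CSF3R of granulocytes had 2.22 RPKM at dry-off and 4.68 in non-lactation, and the fibroblast genes LUM (58.4 and 62.5) and FBN1 (6.05 and 6.40) were also higher in non-lactation than at dry-off.

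None of these marker genes was listed at 0 in lactation. In dry-off against lactation 2 of 6 B and plasma cell genes, 6 of 8 macrophage genes, 1 of 3 granulocyte and mast cell genes, 3 of 5 fibroblast genes and 4 of 7 endothelial genes rose in the authors' deposited table. So did 2 of the 3 pan-leukocyte genes. The share over all transcripts was 65.9%, and nothing is read from these counts. In non-lactation the fibroblast sum stood nearer to dry-off than the CD3 sum did, which was 11.3 RPKM in lactation, 177 at dry-off and 68.1 in non-lactation. DCN made up most of the fibroblast sum and CD3E most of the CD3 sum. The luminal epithelial genes EPCAM and CDH1 summed to 47.7, 131 and 99.5 RPKM. Their part in the differences of the T cell genes was not tested.

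Milk transcripts moved against them. LALBA and GLYCAM1 together made up 49.9% of the table's summed RPKM for lactation, 0.523% for dry-off and 21.5% for non-lactation. All 4 milk synthesis genes measured fell in dry-off against lactation in the authors' deposited table. RPKM is relative to each library, so levels of other transcripts depend on how much of it these take, and their part was not tested. Centred on the table's median, the 8 leading transcripts kept a positive log2 ratio of dry-off over lactation, from 1.02 to 3.30, and centred on 44 ribosomal protein transcripts, from 2.10 to 4.38. The choice of the genes on these stage means favoured that sign, so it supports nothing and does not measure the part of the milk transcripts.

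The genes whose 3 stage means were most like those of each member were looked up among other descriptions with at least 5 RPKM in some stage, by the distance between centred log2(mean + 1) values. The 3 nearest to CD3D were a TRIM protein (TRIM6/22/34), JAK3 and the receptor KLRK1, those of CD3E a SCAN domain zinc finger protein, a serum/glucocorticoid regulated kinase and the chemokine CCL3, and those of CD3G a T-cell receptor beta chain V region, CSF1R and gelsolin. For GZMA they were L-lactate dehydrogenase, plexin C and a forkhead-like protein, for GZMB ICAM1, carnitine O-octanoyltransferase and a proteasome beta subunit, and for GZMH a PiT phosphate transporter, the kinase ATR and nardilysin. For ITGA4 they were a low affinity Fc receptor of IgG, BIRC5 and FLI1, and for MAP4K1 tissue plasminogen activator, a CYP4V cytochrome and IL2RG. With only 3 stages many genes have almost the same profile, and 57.6% of the table shared the authors' profile 14, as did 19 of the 23 members (82.6%). Those 19 include 9 granzyme H transcripts of 1 component. The profiles come from the same libraries as the stage means behind the choice of genes, so nothing is read from this gap.

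The authors' pathway table placed CD3D, CD3E and CD3G in the T cell receptor signalling pathway, of whose 137 measured transcripts 86 (62.8%) rose and none fell in dry-off against lactation in the authors' deposited table. It listed MAP4K1 in MAPK signalling and not in the T cell receptor pathway, GZMB in natural killer cell mediated cytotoxicity, where 84 of 138 (60.9%) rose in the authors' deposited table, and GZMH in none. Both shares lie below the 65.9% of all transcripts that rose. ITGA4 was in 11 pathways, including leukocyte transendothelial migration, where 68.7% rose.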

How the data were processed

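RNA was sequenced from 9 mammary gland samples, 3 per stage, as single-end reads of poly(A) RNA per the labels' protocols. The authors deposited mean RPKM values per stage for 9131 assembled transcripts, with log2 ratios, p-values and FDR (adjusted p-values) for the 3 pairwise comparisons, and an annotation of 51299 transcripts. The submitters' processing notes name FastQC. The aligner, assembler, counting, test and the set over which FDRs were adjusted are each not stated by any source used here. In the table, 93.8% of rows pass p under 0.05 somewhere among the 3 comparisons, so its shares describe a selected set.

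The files hold no value per sample, so no test, SD or depth was computed, although a test per transcript had been planned. Members were found by description. Ratios were recomputed from the deposited means with Python 3.11.15 and pandas 2.3.3, because log2 columns held spreadsheet errors; a pseudocount of 1 was added where stated. Calls are the authors' FDR under 0.05. The script was tested on simulated data. The members and gene lists were chosen with earlier results of these data known. Of 234 list symbols 138 matched a description and 106 had means. Named genes of the lymphocyte lists were up to 5 per list with the highest means. Genes a result turned on, such as ITGB7 and VCAM1, were added, chosen after their values were seen. For lists of other cell types sums are given and only some genes are named. For each gene the 3 nearest profiles were searched. GO and KEGG columns beside the descriptions did not match them and were not used.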

Additional observations from a re-analysis of the deposited data

How the results depend on the processing

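At an FDR under 0.01 the count of members called in dry-off against lactation in the authors' deposited table was 4 rather than 12. The share of all transcripts at that threshold was not computed, so nothing is read from the 4. At an unadjusted p under 0.05 the count was 20 of 23, against 88.2% of all transcripts. With 1 transcript kept per component, 8 of 14 passed an FDR of 0.05. At an unadjusted p the count was 1 in non-lactation against lactation and 2 in non-lactation against dry-off, against 41.7% and 40.5% of all transcripts. All 8 leading transcripts kept the sign of their ratio in all 3 comparisons with centring on the table's median or on ribosomal protein transcripts. The choice of the genes on these stage means favoured those signs, so nothing is read from them. Adding 0.1 or 1 to the means cannot change a sign, and it moved the ratios toward 0 on the log2 scale. No paired analysis was possible because only stage means were used. Leaving out single replicates was not run for the same reason. Depth is unknown, and lactation means below 1 RPKM make the ratios imprecise.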
